A study of Mus musculus with 9 samples.

Results

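The SRC family kinases are membrane-anchored tyrosine kinases, here Src, Lyn, Fgr, Blk, Fyn, Lck and Yes1, examined together with Csk, the kinase that restrains them. The 8 genes were chosen by name, among 50686 genes in the count tables, and all 8 passed the filter on low counts together with 13852 genes in all. RNA-seq had been done on cell lines derived from C57BL/6N bone marrow and transformed with BCR/ABLp185, the short form of the BCR/ABL oncogene. Genotypes wt, Stat5a-/- and Stat5b-/- were represented by 1 line each, with 3 technical replicates per line and 9 polyA RNA libraries in total. All 3 lines carry BCR/ABLp185, and the knockout lines lack STAT5A or STAT5B, which are transcription factors activated downstream of the oncogene. The tests therefore compare 3 cell lines, and their p-values measure only the spread between technical replicates.

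SRC family kinases sit at the inner face of the plasma membrane and phosphorylate the tyrosine motifs of immune receptors, which recruits kinases such as SYK and ZAP-70. Csk phosphorylates a tyrosine in the tail of each family member, which folds the kinase into a closed and inactive form, and membrane phosphatases such as CD45 remove that phosphate. Lyn, Fyn and Blk are the members usually associated with B cells, Lck with T cells, and Fgr with myeloid cells, and BCR/ABL is known to engage several of them in leukemic cells.

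The knocked-out genes were read first as a check of the labels. Stat5a had 43.1 ± 6.35 normalized CPM (counts scaled to a common library size by TMM, SD, n = 3) in wt, against 12.4 ± 1.02 in Stat5a-/- and 83.7 ± 10.2 in Stat5b-/- cells. Stat5b had 105.5 ± 1.96 normalized CPM in wt, 141.7 ± 15.9 in Stat5a-/- and 63.4 ± 7.72 in Stat5b-/- cells. Each was lowest in its own knockout, and in both cases reads remained. The counts cover whole genes, so reads outside a deleted part are included. The libraries held between 11948136 and 19016396 counted reads, and the spread between replicates exceeded counting noise (chi-square per degree of freedom 4.63 to 28.0). The B-cell transcription factor gene Pax5 had at least 9192 counts in every library. All 12 B-lineage markers examined passed the filter, but Rag1 and Rag2 were near absent outside wt and passed through the wt libraries. Rag1 had 1002 to 1328 counts in wt, 1 to 3 in Stat5a-/- and 7 to 11 in Stat5b-/- libraries. In Stat5b-/- against wt 5 of the 12 rose and 5 fell (24.2% and 22.0% of all genes tested). In Stat5a-/- against wt 3 rose and 4 fell (19.8% and 16.3%). Rag1 and Rag2 are among those that fell in both comparisons. By contrast, 9 of 14 myeloid and 5 of 7 stromal markers had at most 3 counts in every library. Of 7 erythroid markers 2 passed the filter. Their list summed to 11.5 to 13.8 normalized CPM in wt, 11.7 to 14.6 in Stat5a-/- and 2.74 to 3.81 in Stat5b-/- libraries.

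The promoters of 3 genes that the comparisons turn on are shown here, with 2 windows for Lck, which has a distal and a proximal start. Each window runs from 250 bases before to 50 bases after a RefSeq start in GRCm38.p6, and 6 of the 8 genes had an entry, with 8 windows in all. Capitals mark GGAAGT, an ETS-type sequence, and CAGGTG, an E-box, searched on both strands. The distal and proximal Lck windows lie at chr4:129573592-129573891 and chr4:129558323-129558622, both on the minus strand. The Fgr window lies at chr4:132973845-132974144 and the Fyn window at chr10:39369549-39369848, both on the plus strand.
Lck distal: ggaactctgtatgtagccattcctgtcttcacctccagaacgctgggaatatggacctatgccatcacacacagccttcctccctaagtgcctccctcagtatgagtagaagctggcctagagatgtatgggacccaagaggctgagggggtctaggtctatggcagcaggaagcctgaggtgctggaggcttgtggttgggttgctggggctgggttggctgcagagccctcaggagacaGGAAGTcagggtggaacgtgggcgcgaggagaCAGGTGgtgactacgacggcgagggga
Lck proximal: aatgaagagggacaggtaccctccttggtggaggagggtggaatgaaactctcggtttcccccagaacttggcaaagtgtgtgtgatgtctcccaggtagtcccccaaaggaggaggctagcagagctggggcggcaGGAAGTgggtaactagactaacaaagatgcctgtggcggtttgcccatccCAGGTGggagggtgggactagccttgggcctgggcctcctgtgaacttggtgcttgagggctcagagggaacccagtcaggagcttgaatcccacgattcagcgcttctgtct
Fgr: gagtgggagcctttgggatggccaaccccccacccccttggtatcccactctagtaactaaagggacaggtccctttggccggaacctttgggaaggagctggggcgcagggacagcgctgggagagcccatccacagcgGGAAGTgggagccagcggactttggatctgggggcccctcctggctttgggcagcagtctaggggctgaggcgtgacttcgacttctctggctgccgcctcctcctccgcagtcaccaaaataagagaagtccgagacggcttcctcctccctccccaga
Fyn: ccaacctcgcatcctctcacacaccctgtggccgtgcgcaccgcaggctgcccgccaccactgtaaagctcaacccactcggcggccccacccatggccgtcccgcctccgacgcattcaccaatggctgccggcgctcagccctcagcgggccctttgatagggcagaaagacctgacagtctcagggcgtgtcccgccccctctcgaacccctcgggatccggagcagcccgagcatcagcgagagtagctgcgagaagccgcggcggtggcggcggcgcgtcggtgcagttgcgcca
Both Lck windows held 1 GGAAGT and 1 CAGGTG, the Fgr window held 1 GGAAGT, and the Fyn window held neither. Among 32851 promoters of this length, 23.8% held GGAAGT and 20.2% held CAGGTG. The STAT-type sequence TTCNNNGAA, present in 8.30% of promoters, was in none of the 8 windows. These are matches of letters and say nothing about binding.

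Lck was the family member with the clearest difference between all 3 lines. This gene (ENSMUSG00000000409.14, chr4:129548344-129573641, minus strand, GRCm38) encodes the kinase of CD4 and CD8 co-receptors that starts T-cell receptor signaling. The wt libraries had 28.6, 38.5 and 38.3 normalized CPM of Lck, the Stat5a-/- libraries 97.0, 89.8 and 90.6, and those of Stat5b-/- 223, 191.9 and 209. The 3 lines did not overlap, with wt lowest and Stat5b-/- highest. By the quasi-likelihood test of edgeR, with p-values adjusted by Benjamini-Hochberg over all genes tested, Lck was 5.91-fold higher in Stat5b-/- than in wt (log2 fold change 2.56 ± 0.13 SE, adjusted p = 4.14e-09). It was 2.63-fold higher in Stat5a-/- than in wt (log2 fold change 1.40 ± 0.12, edgeR adjusted p = 1.17e-06). Stat5b-/- exceeded Stat5a-/- by 2.25-fold (log2 fold change 1.17 ± 0.12, edgeR adjusted p = 8.13e-06).

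**Figure D1:**
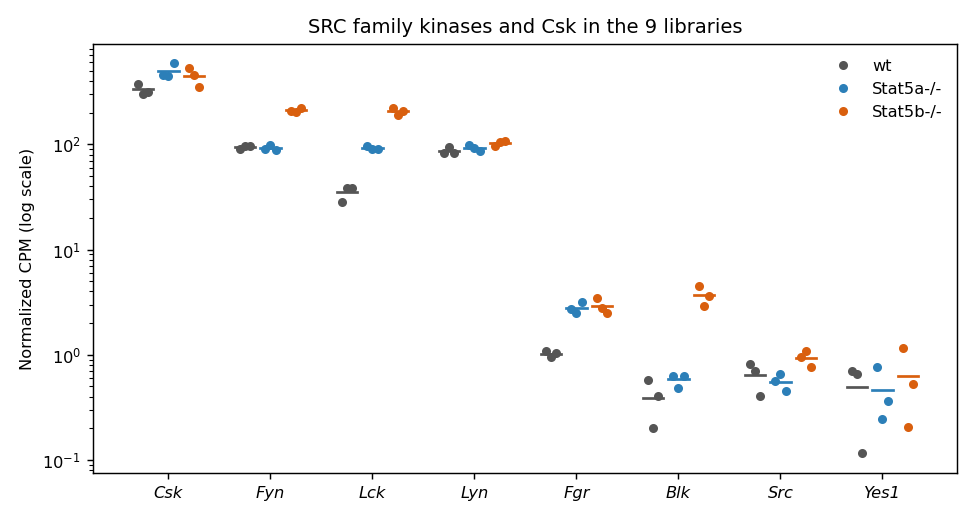
Normalized CPM of each gene on a log axis, with 1 point for each of the 9 libraries and a line at the mean of each group of 3. Lck rises from wt to Stat5a-/- to Stat5b-/- without overlap, and Fyn and Blk are separated from the other lines in Stat5b-/-.

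Fyn was upregulated in Stat5b-/- alone among the comparisons with wt. It encodes a broadly expressed family member with roles in both T-cell and B-cell receptor signaling (ENSMUSG00000019843.14, chr10:39368855-39565381, plus strand). Fyn had 90.5, 97.4 and 96.6 normalized CPM in wt, 90.3, 99.2 and 88.2 in Stat5a-/-, and 206, 205 and 221 in Stat5b-/- libraries. The wt and Stat5a-/- libraries lay in 1 range, and every Stat5b-/- library lay above it. The difference was 2.22-fold against wt (log2 fold change 1.15 ± 0.09, edgeR adjusted p = 3.88e-07) and 2.27-fold against Stat5a-/- (1.19 ± 0.09, edgeR adjusted p = 5.98e-07). Between Stat5a-/- and wt the log2 difference was -0.04 ± 0.09 (edgeR adjusted p = 0.80).

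Blk, a kinase of B-cell receptor signaling found mainly in B-lineage cells, had few reads (ENSMUSG00000014453.3, chr14:63372837-63417187, minus strand). Its counts were 9, 4 and 7 in wt, 9, 6 and 7 in Stat5a-/-, and 65, 43 and 48 in Stat5b-/- libraries. Only the Stat5b-/- libraries stood apart, and it was through them that the gene passed the filter on low counts. Blk was 9.49-fold higher in Stat5b-/- than in wt (log2 fold change 3.25 ± 0.32, edgeR adjusted p = 3.37e-06) and 6.24-fold higher than in Stat5a-/- (2.64 ± 0.32, edgeR adjusted p = 3.91e-05). The log2 difference between Stat5a-/- and wt, 0.61 ± 0.45, did not pass the test (edgeR adjusted p = 0.322). Since Blk entered the test through the line in which it was high, these values describe the counts above and are left out of the second set of member counts given below.

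Fgr, a member best known from myeloid cells, was upregulated in both knockout lines (ENSMUSG00000028874.14, chr4:132974095-133001910, plus strand). The counts of Fgr were 17, 19 and 18 in wt, 39, 31 and 35 in Stat5a-/-, and 51, 41 and 33 in Stat5b-/- libraries. All 6 knockout libraries lay above all wt libraries, and the knockout lines overlapped. The log2 fold change was 1.52 ± 0.23 in Stat5b-/- against wt (edgeR adjusted p = 1.43e-04) and 1.44 ± 0.24 in Stat5a-/- against wt (edgeR adjusted p = 3.17e-04). Between the knockouts it was 0.08 ± 0.21 (edgeR adjusted p = 0.808). Of the 14 myeloid markers, 3 passed the filter, and the summed level of the list was 17.6 to 18.9 normalized CPM in wt, 13.8 to 15.7 in Stat5a-/- and 20.1 to 22.6 in Stat5b-/- cells. In Stat5b-/- against wt, Lyz2 and Csf1r of these 3 rose, by 1.07 and 1.09 on the log2 scale (edgeR adjusted p = 7.88e-04 and 0.0136), while Cd68, which made up most of the sum, had -0.24 (edgeR adjusted p = 0.195). Their part in the level of Fgr was not tested.

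Lyn, the family member that both starts and limits B-cell receptor signaling, differed little between the lines (ENSMUSG00000042228.14, chr4:3678115-3813122, plus strand). Lyn had 83.6, 94.5 and 82.5 normalized CPM in wt, 98.6, 93.1 and 87.4 in Stat5a-/-, and 96.6, 104 and 108 in Stat5b-/- libraries. The Stat5b-/- libraries lay above all wt libraries by a small margin, and overlapped with Stat5a-/-. The log2 fold change against wt was 0.25 ± 0.10 in Stat5b-/- (edgeR adjusted p = 0.0561) and 0.10 ± 0.10 in Stat5a-/- (edgeR adjusted p = 0.471). The first of these passed the threshold without wt replicate 2 (0.31, edgeR adjusted p = 0.0435).

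Src and Yes1, which are broadly expressed outside blood cells, were near the limit of detection. Src had 7 to 14 counts in wt, 5 to 8 in Stat5a-/- and 10 to 16 in Stat5b-/- cells, and the Stat5b-/- value exceeded wt by 0.55 ± 0.33 on the log2 scale (edgeR adjusted p = 0.204). The Stat5b-/- libraries lay above the Stat5a-/- libraries for Src, with a log2 difference of 0.75 ± 0.37 that did not pass the test (edgeR adjusted p = 0.134). Yes1 had 2 to 13, 3 to 11 and 3 to 17 counts, with a log2 fold change of 0.37 ± 0.64 in Stat5b-/- against wt (edgeR adjusted p = 0.661). Src, like Blk, passed the filter through the Stat5b-/- libraries, since it did not pass in a fit of wt and Stat5a-/- alone. The libraries of the 3 lines overlapped for Yes1, and no difference was detected in either gene.

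Csk was upregulated in both knockout lines by less than 2-fold (ENSMUSG00000032312.7, chr9:57626646-57653631, minus strand). Csk had 377, 304 and 317 normalized CPM in wt, 455, 443 and 587 in Stat5a-/-, and 529, 460 and 351 in Stat5b-/- libraries. The Stat5a-/- libraries lay above every wt library, whereas Stat5b-/- replicate 3 lay within the wt range. The log2 fold change was 0.57 ± 0.16 in Stat5a-/- (edgeR adjusted p = 0.0114) and 0.42 ± 0.16 in Stat5b-/- (edgeR adjusted p = 0.0404). The call in Stat5b-/- was lost without wt replicate 2 or 3 (edgeR adjusted p = 0.126 and 0.125), Stat5a-/- replicate 1 or 2 (0.0674 and 0.0617) and Stat5b-/- replicate 1 or 2 (0.223 and 0.102). The log2 fold change without Stat5b-/- replicate 1 was 0.26. In Stat5a-/- the call was lost without wt replicate 3 (edgeR adjusted p = 0.0514) or Stat5a-/- replicate 3 (0.0663).

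**Figure D2:**
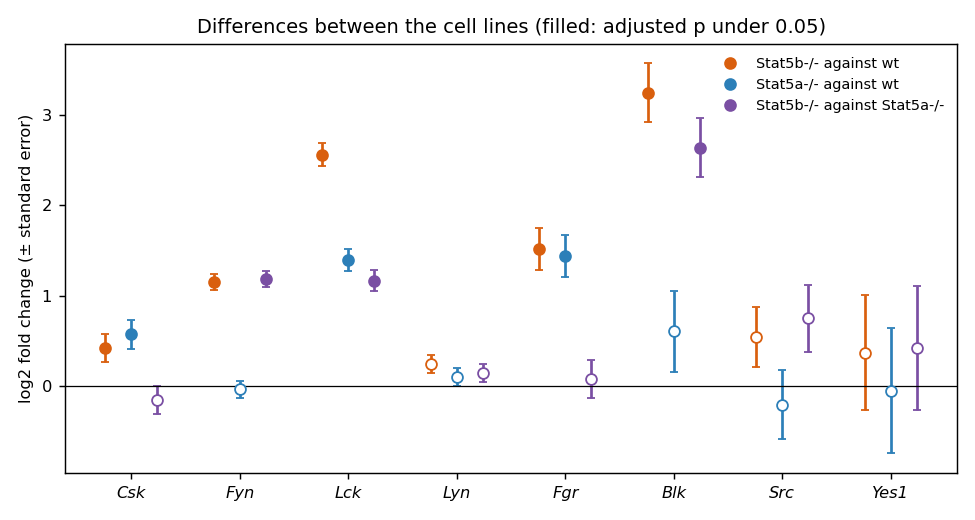
Log2 fold change of each gene with its standard error in the 3 comparisons between lines, from edgeR, with filled points at an adjusted p under 0.05. Blk, drawn at 3.25 in Stat5b-/- against wt, passed the filter through the Stat5b-/- libraries, and Lck is the only gene of the 8 with filled points in all 3 comparisons.

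Of the 8 genes, 5 were upregulated in Stat5b-/- against wt (Fgr, Blk, Fyn, Lck and Csk), 4 of them by more than 2-fold, and 0 were downregulated. Of all genes tested, 24.2% were called higher in that comparison, 10.6% by more than 2-fold, and 22.0% were called lower. In Stat5a-/- against wt 3 genes were upregulated (Fgr, Lck and Csk), 2 of them by more than 2-fold, and 0 were downregulated, where 19.8% of all genes were called higher, 7.75% by more than 2-fold, and 16.3% lower. In Stat5b-/- against Stat5a-/- 3 were upregulated (Blk, Fyn and Lck), all by more than 2-fold, and 0 were downregulated, where 16.4% of all genes were called higher, 4.81% by more than 2-fold, and 17.5% lower. Without Blk and Src, which passed the filter through the Stat5b-/- libraries, 4 of 6 genes were upregulated in Stat5b-/- against wt, 3 of them by more than 2-fold, 3 of 6 in Stat5a-/- against wt and 2 of 6 in Stat5b-/- against Stat5a-/-. Both knockouts were compared with the same wt libraries.

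T-cell genes were measured beside Lck, which T cells express. In bulk RNA fewer cells of a type and less RNA per cell cannot be told apart. All 17 T-cell markers passed the filter. Their summed level was 1052 to 1426 normalized CPM in wt, 1784 to 2078 in Stat5a-/- and 2172 to 3140 in Stat5b-/- cells, so it moved with Lck. In Stat5b-/- against wt 16 of the 17 were upregulated, with log2 fold changes between 0.81 and 1.34, where 24.2% of all genes tested were called higher. Cd28 had 0.55 and was not called (edgeR adjusted p = 0.0609). The median of all 17 was 1.14, and each was below the 2.56 of Lck. In Stat5a-/- against wt 8 of the 17 were upregulated with a median of 0.42, where 19.8% of all genes tested were called higher. There Cd2, an adhesion receptor, had 2.33, and the other 16 markers were at 0.59 or lower, below the 1.40 of Lck. Cd2 averaged 55.1, 276 and 96.3 normalized CPM in wt, Stat5a-/- and Stat5b-/- cells and is part of the marker sum. In Stat5b-/- against Stat5a-/- 15 of the 17 were upregulated and Cd2 fell by 1.52 (16.4% and 17.5% of all genes tested were called higher and lower). The median there was 0.72 and the highest marker 0.997, below the 1.17 of Lck. The 6 NK-cell markers, 4 of which passed the filter, summed to 28.9 to 43.5 normalized CPM for wt, 30.4 to 37.8 for Stat5a-/- and 39.0 to 69.4 for Stat5b-/-, and their part in the level of Lck was not tested. Of the 4, Klrd1, Eomes and Prf1 rose in Stat5b-/- against wt, by 1.04, 1.10 and 1.07 on the log2 scale (edgeR adjusted p = 0.00572, 0.00297 and 3.80e-04), while Klrb1c fell by 2.65 (edgeR adjusted p = 6.91e-08).

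Per 100 normalized CPM of the T-cell markers, Lck was at 2.71, 2.70 and 2.91 in wt, 4.94, 4.32 and 5.08 in Stat5a-/-, and between 7.0 and 8.84 in Stat5b-/- libraries. The lines did not overlap in this ratio, which was 2.75 times as high in Stat5b-/- as in wt and 1.72 times as high in Stat5a-/- as in wt. Between the knockouts it was 1.60 times as high in Stat5b-/- as in Stat5a-/-. An exact two-sided permutation test gave p = 0.1 for each, the smallest value that 3 against 3 libraries allow. The ratio of Fyn averaged 7.59 ± 0.912 in wt cells, 4.77 ± 0.172 in Stat5a-/- cells and 7.80 ± 1.48 in Stat5b-/- cells (SD, n = 3). For Stat5b-/- against wt the exact two-sided permutation test of the Fyn ratio gave p = 0.8. The Fyn ratio in Stat5a-/- was 0.628 times that in wt, and in Stat5b-/- it was 1.63 times that in Stat5a-/-, each without overlap and with the smallest exact permutation p, 0.1.

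**Figure D3:**
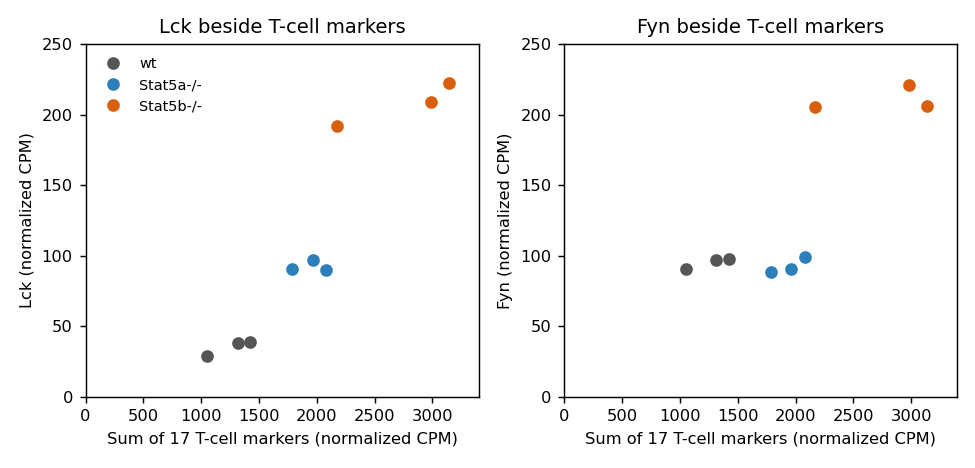
Normalized CPM of Lck and of Fyn against the sum of 17 T-cell markers, with 1 point per library and linear axes from 0. Lck follows the order of the marker sum across the lines, while Fyn lies in 1 range in wt and Stat5a-/- and higher in the Stat5b-/- libraries.

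With the log2 of the T-cell marker sum as a covariate in the fit, which was added after the data were seen, 3 of the 8 genes remained called in Stat5b-/- against wt, or 2 of 6 without Blk and Src. Lck had a log2 fold change of 1.95 (edgeR adjusted p = 4.95e-04), Fyn 0.93 (edgeR adjusted p = 0.0193) and Blk 2.78 (edgeR adjusted p = 0.0454). The calls of Fgr (1.51, edgeR adjusted p = 0.125) and Csk (0.90, edgeR adjusted p = 0.191) were lost. In Stat5a-/- against wt the calls of Lck (1.06, edgeR adjusted p = 7.96e-04), Fgr (1.44, edgeR adjusted p = 0.0179) and Csk (0.84, edgeR adjusted p = 0.0386) were kept with the covariate, as were those of Lck (0.89, edgeR adjusted p = 0.00106), Fyn (1.09, edgeR adjusted p = 9.11e-05) and Blk (2.43, edgeR adjusted p = 0.00442) in Stat5b-/- against Stat5a-/-. Among all 13852 genes tested, this fit called 879 higher and 803 lower in Stat5b-/- against wt. It called 1837 and 1571 in Stat5a-/- against wt, and 1014 and 1323 in Stat5b-/- against Stat5a-/-. The number called in Stat5b-/- against wt fell from 6397 to 1682. Because the marker sum differs between the lines, the covariate also takes up part of any difference between them.

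Divided by exon length, as RPKM (normalized CPM per kilobase of exon), Lyn, Fyn and Lck made up most of the family in all 3 lines. Shares are of the summed RPKM of the 7 kinases. In wt libraries Fyn took 39.1% ± 1.24 and Lyn 38.3% ± 1.87 of the sum, ahead of Lck with 21.4% ± 2.34 (SD, n = 3). In Stat5a-/- libraries Lck came first with 41.1% ± 1.26, followed by Lyn with 29.7% ± 0.763 and Fyn with 27.6% ± 1.65. In Stat5b-/- libraries Lck took 48.2% ± 2.13, Fyn 32.8% ± 1.17 and Lyn 17.2% ± 1.26. The ranges of Fyn and Lyn overlapped in wt and in Stat5a-/- libraries, and Lck was set apart from both in every line. This order depends on the division by length. Without it the shares in Stat5a-/- were 32.9% for Lyn, 32.8% for Fyn and 32.7% for Lck, and in Stat5b-/- Fyn, with 39.8%, stood ahead of Lck, with 39.2%.

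**Figure D4:**
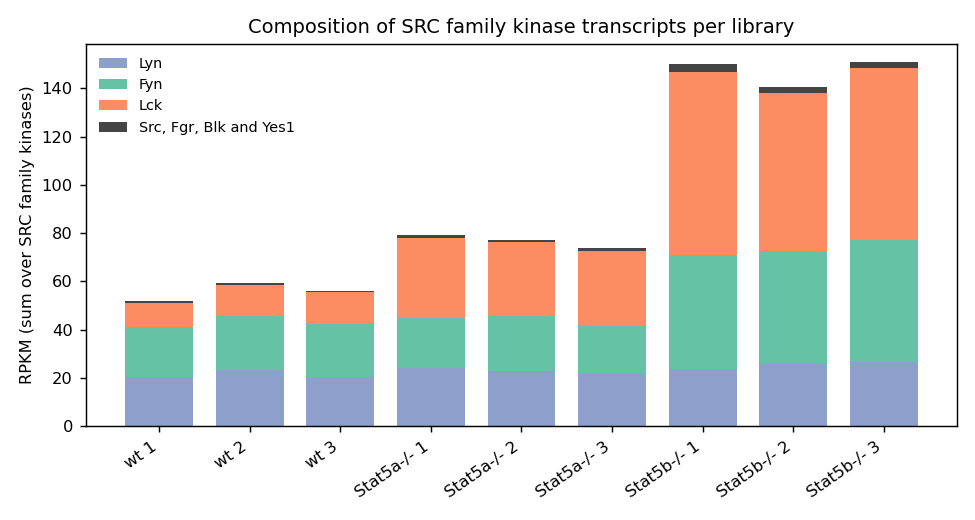
Summed RPKM of 7 SRC family kinases in each library, as bars from 0 split by gene. The total lies between 51.8 and 59.2 in wt and between 140.4 and 150.8 in Stat5b-/-, and most of the added height is Lck and Fyn.

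The summed RPKM was 55.7 ± 3.73 in wt, 76.8 ± 2.73 in Stat5a-/- and 147 ± 5.81 in Stat5b-/- cells. Csk had 89.1 ± 10.4, 132 ± 21.4 and 119 ± 23.9 RPKM. The ratio of the family to Csk was thus 0.634 ± 0.11 in wt, 0.591 ± 0.105 in Stat5a-/- and 1.27 ± 0.294 in Stat5b-/- cells. The lowest Stat5b-/- library was at 1.06 and the highest of the other libraries at 0.728. These are transcript levels and not kinase activities. Lck made up 48.2% of the sum in Stat5b-/- and 21.4% in wt, and the T-cell markers moved with Lck as given above. The part of T-cell RNA in this ratio was not tested.

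Genes around the family were grouped by role, and 42 of 48 passed the filter. Among these 26 were upregulated and 4 downregulated in Stat5b-/- against wt, and 22 and 4 in Stat5a-/- against wt. The downregulated genes of both comparisons include Bcar1, described below, which passed the filter through the wt libraries, where it was high. Of all genes tested, 24.2% were called higher and 22.0% lower in Stat5b-/- against wt, and 19.8% and 16.3% in Stat5a-/- against wt. The median log2 fold change of the 42 pathway genes was 0.57 and 0.44, against 0.02 and 0.01 over all genes tested.

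Of 14 brakes and phosphatases tested, 9 were upregulated and 1 was downregulated in Stat5b-/- against wt (24.2% and 22.0% of all genes), and 7 and 1 in Stat5a-/- against wt (19.8% and 16.3%). Pag1, the membrane adaptor that recruits Csk to lipid rafts, had 40.5 ± 6.84 normalized CPM in wt, 96.7 ± 6.78 in Stat5a-/- and 290 ± 20.3 in Stat5b-/- cells. Relative to wt, Pag1 was higher by 2.84 ± 0.13 on the log2 scale in Stat5b-/- (edgeR adjusted p = 2.37e-09) and 1.25 ± 0.13 in Stat5a-/- (edgeR adjusted p = 4.17e-06). The list mixes genes that restrain the family with phosphatases, such as Ptprc and Ptpre, that can remove the inhibitory tail phosphate. It also holds Unc119, a gene for a lipid-binding protein and the only one of the list called lower. Ptpre rose by 2.67 and 1.06 on the log2 scale (edgeR adjusted p = 5.58e-08 and 5.33e-04). Ptpn22, a phosphatase that acts with Csk on active family members, rose by 1.40 in Stat5b-/- (edgeR adjusted p = 1.61e-05) and had 0.42 in Stat5a-/- (edgeR adjusted p = 0.0664). Dok1, an adaptor that dampens tyrosine kinase signaling, rose by 1.29 in Stat5b-/- and by 1.27 in Stat5a-/- (edgeR adjusted p = 1.00e-05 and 1.41e-05). Unc119, whose product binds the lipid tail of family members, fell by 0.55 in Stat5b-/- and by 1.14 in Stat5a-/- (edgeR adjusted p = 0.00443 and 2.48e-05). With the T-cell marker covariate, Unc119 turned to 0.060 in Stat5b-/- against wt (edgeR adjusted p = 0.924) and Ptpn22 was at 0.17 (edgeR adjusted p = 0.694).

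Of 7 receptors and co-receptors tested, 5 were upregulated and 1 was downregulated in Stat5b-/- against wt (24.2% and 22.0% of all genes), and 4 and 0 in Stat5a-/- against wt (19.8% and 16.3%). Cd79a, a signaling chain of the B-cell receptor, rose by 1.09 in Stat5b-/- and by 0.83 in Stat5a-/- (edgeR adjusted p = 2.22e-05 and 2.54e-04), and Cd79b, its partner chain, rose by 0.74 in Stat5a-/- (edgeR adjusted p = 2.28e-05). Cd22, an inhibitory co-receptor phosphorylated by Lyn, rose by 0.48 in Stat5b-/- and by 1.62 in Stat5a-/- (edgeR adjusted p = 0.00345 and 1.18e-07). Cd72, another B-cell co-receptor, rose by 0.91 in Stat5b-/- (edgeR adjusted p = 1.06e-05). Pirb, an inhibitory receptor gene, had 5 to 13 counts in wt, 11 to 18 in Stat5a-/- and 11 to 27 in Stat5b-/- cells, with a log2 fold change of 1.15 in Stat5b-/- against wt (edgeR adjusted p = 0.0384). That call was lost without any 1 of wt replicates 1, 2 and 3, Stat5a-/- replicates 1 and 2 and Stat5b-/- replicate 3, with values between 0.65 and 1.31. The inhibitory Fc receptor gene Fcgr2b fell by 0.71 there (edgeR adjusted p = 1.05e-04). Its log2 difference in Stat5a-/- was 0.23 (edgeR adjusted p = 0.0988). With the T-cell marker covariate the Stat5b-/- calls of Cd22 (0.86, edgeR adjusted p = 0.0624) and Fcgr2b (-0.46, edgeR adjusted p = 0.295) were lost, and Pirb turned to -0.77 (edgeR adjusted p = 0.688).

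Of 20 downstream kinases and adaptors tested, 12 were upregulated and 2 downregulated in Stat5b-/- against wt (24.2% and 22.0% of all genes), and 11 and 3 in Stat5a-/- against wt (19.8% and 16.3%). Nedd9, a scaffold phosphorylated by the family, had 143.7 ± 1.13 normalized CPM in wt, 473 ± 14.2 in Stat5a-/- and 753 ± 96.8 in Stat5b-/- cells (log2 fold change 2.39 and 1.72 in Stat5b-/- and Stat5a-/- against wt, edgeR adjusted p = 2.04e-09 and 3.96e-08). Zap70, the kinase activated by Lck in T cells, had 7.90 ± 0.34 normalized CPM in wt, 9.86 ± 0.808 in Stat5a-/- and 40.1 ± 1.95 in Stat5b-/- cells (log2 fold change 2.34 in Stat5b-/- against wt, edgeR adjusted p = 4.86e-09). The adaptor Lat rose by 1.79 in Stat5b-/- and by 0.66 in Stat5a-/- (edgeR adjusted p = 1.72e-07 and 0.00138), and its relative Lat2 by 1.63 in Stat5a-/- (edgeR adjusted p = 1.11e-04). Pxn, the focal adhesion adaptor paxillin, rose by 0.60 in Stat5b-/- and by 0.78 in Stat5a-/- (edgeR adjusted p = 0.00751 and 0.00177). The first call was lost without Stat5b-/- replicate 1 (0.39, edgeR adjusted p = 0.0535). The adaptor Gab2 fell by 0.38 in Stat5a-/- (edgeR adjusted p = 0.0334). The call of Gab2 was lost without wt replicate 1 or 3 or Stat5a-/- replicate 1 or 2, with values between -0.36 and -0.33. With the T-cell marker covariate the calls of Gab2 (-0.05) and Lat (0.24) in Stat5a-/- and of Pxn (0.77) in Stat5b-/- were lost (edgeR adjusted p = 0.879, 0.312 and 0.308). Zap70 and Lat are themselves expressed by T cells, whose markers moved with the lines as given above. Ptk2, the focal adhesion kinase FAK, had 625 to 769 counts in wt, 14 to 26 in Stat5a-/- and 16 to 31 in Stat5b-/- cells. The log2 values of Ptk2 were -4.46 in Stat5b-/- and -4.69 in Stat5a-/- against wt (edgeR adjusted p = 1.84e-09 and 1.66e-09). Bcar1, a scaffold that binds FAK, fell below the count limit for naming and was picked out after its values were seen. It had 11 to 19 counts in wt, 0 in every Stat5a-/- library and 0 to 2 in Stat5b-/- libraries. Bcar1 passed the filter on low counts through the wt libraries, where it was high. It is counted above among the downregulated genes of both comparisons, and its calls only describe these counts. Taking 3 counts per library as the limit that a count of 0 allows, it was at least 3.56-fold lower in Stat5a-/- than in wt.

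**Figure D5:**
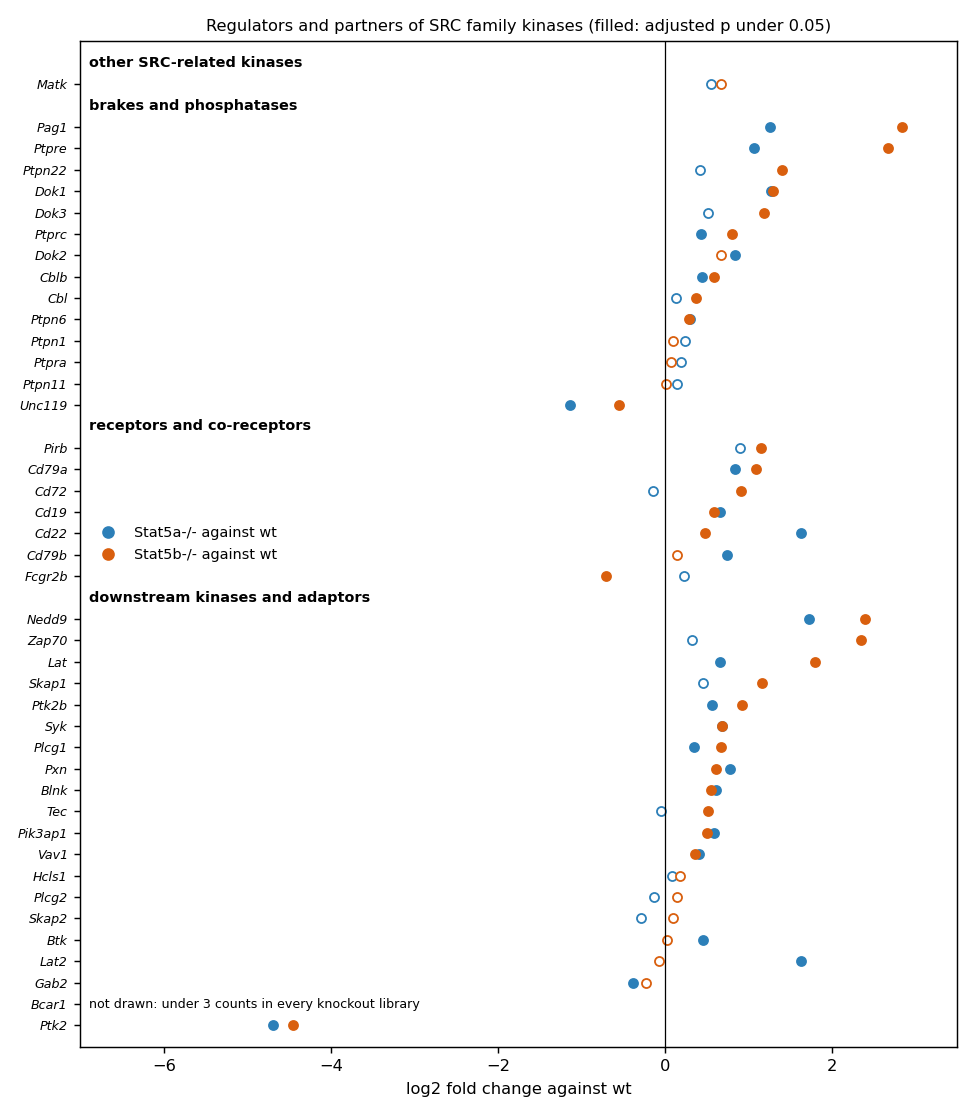
Log2 fold change of 41 regulators and partners of the family against wt from edgeR, ordered within each role by the value in Stat5b-/-, with filled points at an adjusted p under 0.05. Pag1 and Ptpre lie furthest to the right among the brakes and phosphatases, and Ptk2 furthest to the left of the genes drawn. Bcar1, with at most 2 counts in every knockout library, is not drawn.

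The genes whose profile over the 9 libraries was most like that of the 3 members with the widest spread of line means were also listed. Likeness was the root mean square difference of centred log2(CPM + 0.5) values. For Lck these were Rab37 (0.137), Ptger2 (0.162) and 9330175E14Rik (0.166). For Blk they were F830016B08Rik (0.204), Zap70 (0.222) and Usp18 (0.223), and for Fyn Rassf4 (0.0956), N4bp2 (0.12) and Sgsh (0.123). The added 0.5 CPM compresses low genes, and F830016B08Rik had fitted log2 fold changes of 7.73 and 4.06 in Stat5b-/- and Stat5a-/- against wt, where Blk had 3.25 and 0.61.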

How the data were processed

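RNA was measured by RNA-seq of polyA RNA in 9 libraries. Per the labels and the study's methods, the authors trimmed reads with Trimmomatic, mapped them with STAR to GRCm38, counted reads per gene with featureCounts 1.5.1 and deposited raw counts, with no normalization. No strand option was set in the counting, so reads of overlapping antisense genes cannot be told apart (248 exon bases of Lyn, 635 of Yes1), and reads with several positions are dropped by default. Gene symbols came from GENCODE M21.

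Differences between lines were tested in edgeR 4.0.16 under R 4.3.3 after TMM scaling (quasi-likelihood test on all 9 libraries, filterByExpr, Benjamini-Hochberg adjustment over 13852 genes, called at an adjusted p under 0.05). SE was the size of a log2 fold change divided by the root of its F statistic. RPKM is normalized CPM per kilobase of exon. Permutation tests used scipy 1.17.1. Steps were tested on simulated counts. Genes outside the 8 were named where called in a knockout against wt with a mean of at least 10 counts, up to 3 rises and 3 falls per list and comparison. The members and lists were chosen with earlier results of these data known. Alternatives were DESeq2 1.42.0, RLE scaling, other filters, only the groups compared, a replicate block, a GC offset (loess span 0.5) and each library left out, and, added after seeing the data, a T-cell marker covariate. Promoter sequences are from RefSeq GRCm38.p6. Knockout samples carry a description naming wt lines, so groups were taken from titles and genotype labels. Depth was 11948136 to 19016396 counts per library. Some related genes are not reported here.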

Additional observations from a re-analysis of the deposited data

How the results depend on the processing

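Of 426 values of the 8 genes under the alternatives, 395 kept their direction and their side of the threshold, 12 lost a call, 3 gained one and 16 changed sign, all in comparisons where the gene was not called. Yes1 turned to -1.48 in Stat5b-/- against wt and -0.44 between the knockouts with the T-cell marker covariate and to 0.078 in Stat5a-/- against wt with the GC offset, Src to 0.16 in Stat5a-/- against wt with the covariate, and Csk between the knockouts to 0.083 with the GC offset, 0.081 with that offset and the replicate block and 0.064 with the covariate. With 1 library left out, Yes1 lay between -0.46 and 0.80 in Stat5b-/- against wt, -0.72 and 0.25 in Stat5a-/- against wt and -0.39 and 1.07 between the knockouts, where Fgr lay between -0.075 and 0.17 and Csk between -0.29 and 0.0021. Lyn in Stat5b-/- against wt was called with the GC offset (0.25, edgeR adjusted p = 0.00839). Csk in Stat5b-/- against wt was not called with RLE scaling (edgeR adjusted p = 0.0582) or with the replicate block (0.42, edgeR adjusted p = 0.0603). It was kept in 9 of the 18 alternatives, among them the GC offset with and without the block. Departures of the libraries from their line mean correlated with GC content at -0.54 to 0.58, and Csk has 60.1% GC. Same-numbered libraries did not deviate together (mean correlation across genes -0.11 over 9 pairs, from -0.56 to 0.29), so the replicate numbers were not taken as pairs, and with the replicate block 3016 genes were higher and 2738 lower in Stat5b-/- against wt, 2420 and 1893 in Stat5a-/- against wt, and 1802 and 2093 in Stat5b-/- against Stat5a-/-. With the T-cell marker covariate 1682 of 13852 genes were called in Stat5b-/- against wt, 1550 of them by more than 2-fold, with 3 of the 8 genes (2 of 6 without Blk and Src), and 2337 in Stat5b-/- against Stat5a-/-. Under that covariate log2 fold changes of called pathway genes reversed for Unc119 (0.060), Pirb (-0.77) and Skap1 (-0.34) in Stat5b-/- against wt and for Ptprc (-0.0057) in Stat5a-/- against wt. Pathway genes that were not called also reversed, among them Lat2 (1.07) and Gab2 (0.37) in Stat5b-/- against wt. The cause was not tested. Without division by length, the shares in wt, Stat5a-/- and Stat5b-/- were 43.3%, 32.8% and 39.8% for Fyn and 15.9%, 32.7% and 39.2% for Lck, and that of Lyn was 32.9% in Stat5a-/- and 19.5% in Stat5b-/-, so that Lck no longer came first in either knockout line. With only the groups compared, Src and Blk in Stat5a-/- against wt and Yes1 between the knockouts gave no value, nor did Yes1 with a mean of at least 10 counts. Blk, Src and Yes1 rest on few reads, and 1 line per genotype does not separate genotype from line.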
